A study of Mus musculus with 48 samples.

Results

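The 10 genes followed here are in use as markers of the macrophages resident around vessels and were measured in the thoracic aortas of 48 mice, to ask whether they rose with the inflammatory infiltrate of aortic lesions or fell. They were Lyve1, Folr2, Mrc1, Cd163, Timd4, Cbr2, F13a1, Pf4, Cd209f and Gas6, chosen by name. All 10 were found among the 18782 genes of the count table and all 10 stayed among the 14431 genes left after the filter on low counts, with between 8 reads (Timd4) and 22493 reads (Gas6) in a library. Every mouse was a wild-type C57BL/6J animal that entered the study at 3 weeks of age and gave 1 library. BAPN (β-aminopropionitrile) blocks the crosslinking of collagen and elastin and so weakens the aortic wall. It was given at 0.4% in the water for 28 days to males and females, and controls drank plain water over the same time. The treated survivors were sorted at the end by outcome, into those with and those without a lesion. The groups were 10 male controls (MaCon), 4 males with BAPN and no lesion found (MaNonAD), 7 males with dissection or aneurysm (MaAAD), 10 female controls (FeCon), 8 females with BAPN and no lesion found (FeNonAD) and 9 females with dissection or aneurysm (FeAAD). Only animals that lived to the end of the exposure were sequenced, so lesions that had already ruptured fatally were not measured.

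Resident macrophages of arteries sit mainly in the adventitia, where they clear dying cells and debris and take up hyaluronan, haemoglobin and glycoproteins. They are seeded in part before birth and renew themselves in place, whereas monocytes enter from the blood during inflammation and can acquire some of the same genes. Among the 10 genes, Lyve1 encodes a hyaluronan receptor that lymphatic endothelium also carries. Mrc1 (the mannose receptor CD206), Cd163 (the haemoglobin scavenger receptor), Cd209f (a C-type lectin), Folr2 (a folate receptor) and Timd4 (a phosphatidylserine receptor) encode surface proteins of uptake. F13a1 encodes a subunit of coagulation factor XIII, Cbr2 a carbonyl reductase, Pf4 the chemokine platelet factor 4, which megakaryocytes also make, and Gas6 the ligand of the receptors Tyro3, Axl and Mertk.

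Library totals lay between 13548003 and 17281262 counts. The unit of a level is CPM, a count scaled to the depth of its library with TMM factors. A gene was called changed when edgeR's quasi-likelihood test over all 14431 genes gave an adjusted p under 0.05 and a log2 fold change of at least 1 in size. In bulk tissue, fewer cells of a type and less RNA per cell cannot be told apart, nor can a change of other cells' share of the RNA. Cd209f belongs to a family of near-identical neighbours, and its deposited estimates were not whole numbers in 47 libraries, so its level is uncertain, whereas those of the other 9 genes were whole throughout.

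Promoters of 9 of the 10 genes were matched by symbol in a RefSeq table on build GRCm38.p6, from 250 bases before the start to 50 after it, as 11 windows, with none for Lyve1. Those of Mrc1 and Pf4, which rose in AAD aortas of both sexes, and of Timd4 and Cbr2, which passed the adjusted p alone with lower levels in males and, for Cbr2, also in females, are shown 5′ to 3′ on the strand of the gene. Capitals mark the letters GAGGAA, the core bound by the myeloid factor PU.1, TGCTGA, a half-site of MAF factors, and AGATAA, bound by factors of the GATA family, on either strand, and a match on the other strand appears as its reverse complement. No match overlapped another.
Mrc1 (chr2:14229164-14229463, plus strand): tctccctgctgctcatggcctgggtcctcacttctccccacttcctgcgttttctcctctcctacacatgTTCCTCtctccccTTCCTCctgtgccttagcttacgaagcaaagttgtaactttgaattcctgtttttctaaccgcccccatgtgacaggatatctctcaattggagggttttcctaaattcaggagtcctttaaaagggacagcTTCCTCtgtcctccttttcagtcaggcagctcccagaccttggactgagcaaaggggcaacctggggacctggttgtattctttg
Pf4 (chr5:90772185-90772484, plus strand): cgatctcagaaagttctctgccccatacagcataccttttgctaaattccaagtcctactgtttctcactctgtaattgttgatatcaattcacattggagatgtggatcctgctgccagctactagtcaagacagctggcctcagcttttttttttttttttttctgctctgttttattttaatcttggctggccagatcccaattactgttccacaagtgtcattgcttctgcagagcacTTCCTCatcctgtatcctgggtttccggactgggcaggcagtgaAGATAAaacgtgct
Timd4 (chr11:46810549-46810848, plus strand): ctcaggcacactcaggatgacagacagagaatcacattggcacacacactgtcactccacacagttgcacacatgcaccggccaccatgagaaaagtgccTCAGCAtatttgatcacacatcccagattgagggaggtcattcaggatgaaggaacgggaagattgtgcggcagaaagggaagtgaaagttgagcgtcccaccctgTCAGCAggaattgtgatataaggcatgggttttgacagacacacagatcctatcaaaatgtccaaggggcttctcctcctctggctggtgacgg
Cbr2 (chr11:120731972-120732271, minus strand): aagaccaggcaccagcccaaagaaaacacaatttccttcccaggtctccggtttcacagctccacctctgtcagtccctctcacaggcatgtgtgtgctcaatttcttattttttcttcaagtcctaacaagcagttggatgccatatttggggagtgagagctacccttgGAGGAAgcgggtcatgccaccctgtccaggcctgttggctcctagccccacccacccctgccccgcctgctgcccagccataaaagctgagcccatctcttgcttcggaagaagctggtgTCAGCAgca
The Mrc1 window held the PU.1 core at 3 places and the Pf4 window held it once, with 1 GATA motif. Timd4 held the MAF half-site at 2 places and no PU.1 core, and Cbr2 held each of these motifs once. The PU.1 core lay in a window of 4 genes, namely Mrc1, Cbr2, F13a1 and Pf4, the MAF half-site in those of 3, namely Folr2, Timd4 and Cbr2, and the GATA motif in that of Pf4 alone. Of 32851 promoters of the same length, 28.3% held the PU.1 core, 19.5% the MAF half-site and 11.2% the GATA motif. A match is a description of these letters and not a binding site.

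In control aortas the 10 genes differed widely in level. Per kilobase of exon, over the 20 controls, Cbr2 stood at 401 ± 126 CPM (SD, n = 20) and Gas6 at 330 ± 57.4, and their ranges overlapped. Then followed Pf4 at 19.0 ± 4.67, Lyve1 at 17.7 ± 7.53, Folr2 at 13.9 ± 3.50, F13a1 at 10.4 ± 2.79, Mrc1 at 5.58 ± 1.68, Cd163 at 5.31 ± 1.73, Cd209f at 3.21 ± 1.10 and Timd4 at 1.54 ± 0.512. The lowest control value of Gas6, 251 CPM per kilobase, lay far above the highest of Pf4, 29.0, whereas every other pair of neighbours in this order overlapped. Exon lengths are those of GENCODE M21 (GRCm38), matched by symbol.

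AAD aortas of both sexes held more Mrc1 and Pf4 RNA than controls, males also more F13a1, and no member passed both thresholds downwards. In MaAAD against MaCon 3 of the 10 genes were called, all higher, where 11.4% of all tested genes were called. In FeAAD against FeCon 2 were called, both higher, against 12.7% of all genes. Mrc1 ranged from 17.6 to 52.1 CPM in MaCon, with a median of 28.9, and from 81.5 to 273 in MaAAD, with a median of 102. Its range was 22.4 to 58.2 in FeCon, with a median of 39.4, and 63.0 to 267 in FeAAD, with a median of 79.5. In each sex every AAD aorta thus exceeded every control. The mean rose 3.99-fold in males (log2 fold change 1.99 ± 0.26 SE, edgeR adjusted p = 1.05e-07) and 2.95-fold in females (1.56 ± 0.25, edgeR adjusted p = 1.86e-06). Groups that do not overlap were found for 2 of the 10 genes in males (Mrc1 and Pf4), with 8.91% of all tested genes, and for 1 in females (Mrc1), with 4.89%.

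Pf4 rose unevenly. Its mean rose 4.91-fold in males and 6.53-fold in females, above that of Mrc1, but its median rose 2.88-fold and 1.90-fold, below the 3.54-fold and 2.02-fold of Mrc1. It lay between 7.42 and 17.8 CPM in MaCon, with a median of 13.9, and between 20.8 and 254 in MaAAD, with a median of 40.1. The FeCon range was 8.51 to 20.9, with a median of 13.3, and the FeAAD range 18.9 to 515, with a median of 25.4. All but 1 of the AAD aortas lay above every control of their sex, and that 1 was a female. The log2 fold change was 2.30 ± 0.48 in males (edgeR adjusted p = 0.000169) and 2.71 ± 0.47 in females (edgeR adjusted p = 7.42e-06). Leaving out MaAAD7 lowered the male value to 1.39 (edgeR adjusted p = 0.013), below the 1.70 of Mrc1 without the same library, and leaving out FeAAD5 lowered the female one to 1.44 (edgeR adjusted p = 0.00041), above the 1.297 of Mrc1 without it.

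F13a1 rose in males and passed on p alone in females. Its level was 37.6 to 101 CPM in MaCon, with a median of 58.7, and 88.2 to 298 in MaAAD, with a median of 140, so that 6 of 7 lesioned males exceeded every control. In FeCon it was 53.6 to 95.2, with a median of 76.2, and in FeAAD 61.5 to 278, with a median of 110.0, with 6 of 9 above every control. The log2 fold change was 1.21 ± 0.22 in males (edgeR adjusted p = 2.71e-05) and 0.92 ± 0.21 in females (edgeR adjusted p = 0.0004). Without MaAAD7 the male value was 0.97, under the fold threshold, and without FeAAD9, the lowest of its group, the female value was 1.01 and was called.

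**Figure D1:**
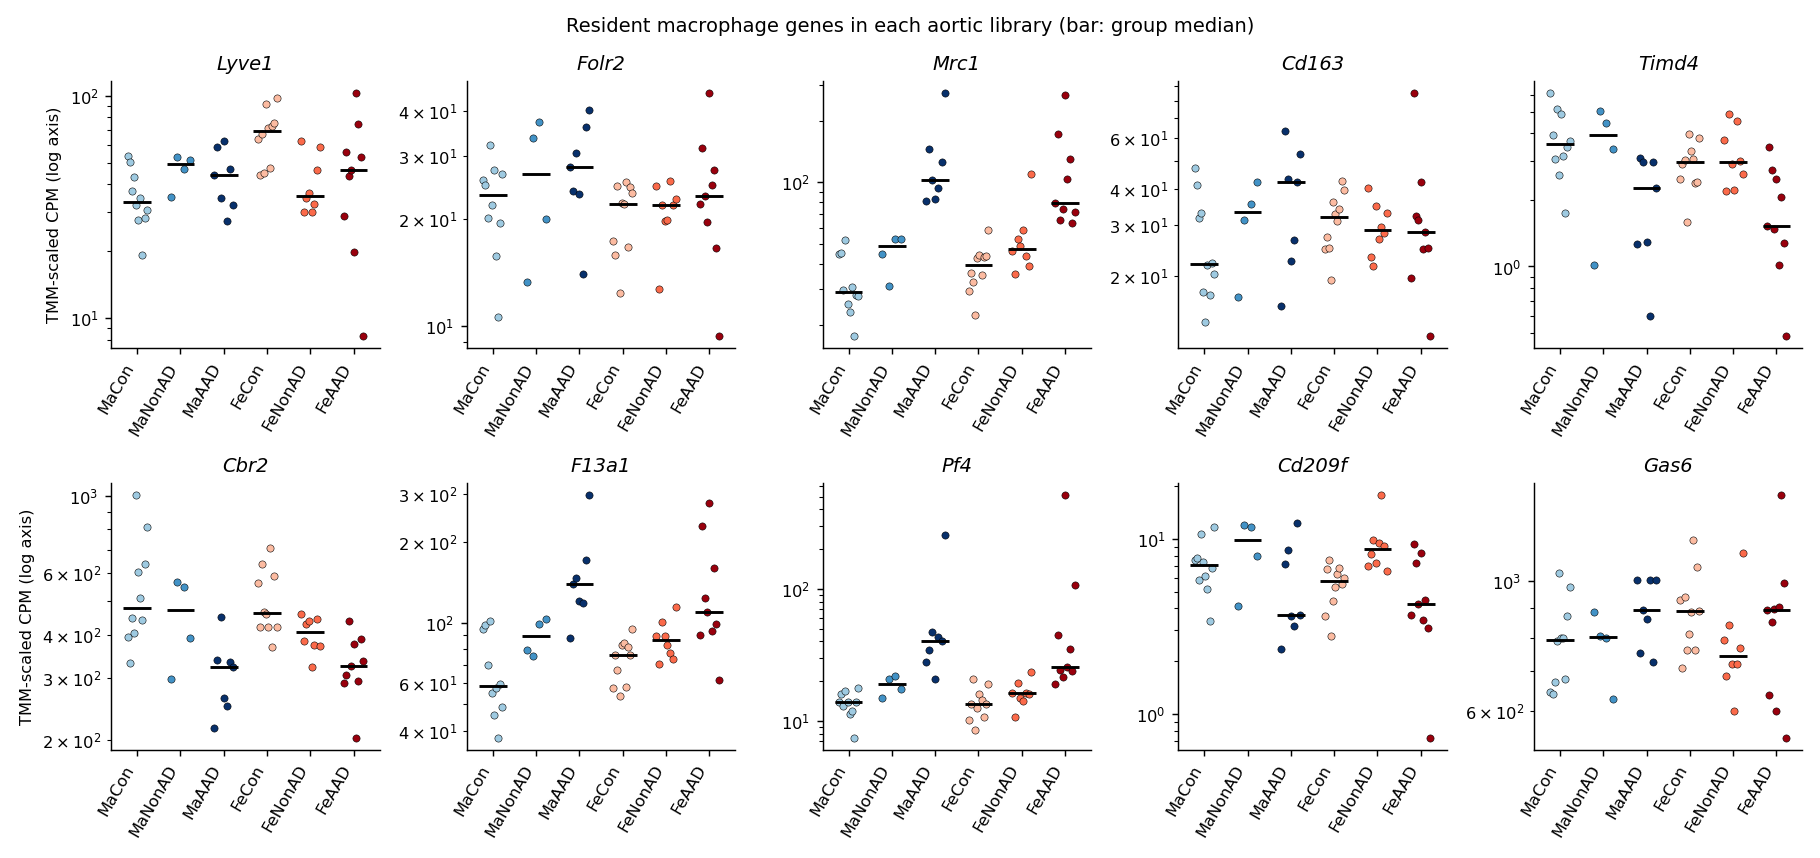
Each point is 1 library, the vertical axis is the TMM-scaled CPM on a log scale of its own in each panel, and the bar is the group median. Every MaAAD and FeAAD library lies above every control of its sex for Mrc1, whereas the groups overlap for Lyve1, Folr2, Cd163, Cd209f and Gas6.

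The surface receptors Lyve1, Folr2 and Cd163, the lectin Cd209f and the ligand Gas6 were not called in either sex. Folr2 had a median of 23.3 CPM in MaCon and 28.0 in MaAAD, and of 22.0 in FeCon and 23.2 in FeAAD. Its log2 fold changes were 0.32 ± 0.22 in males (edgeR adjusted p = 0.265) and 0.25 ± 0.21 in females (0.334). For Cd163 the medians were 22.0 and 42.1 in the male groups and 31.9 and 28.5 in the female groups, with log2 fold changes of 0.51 ± 0.27 and 0.10 ± 0.25 (edgeR adjusted p = 0.135 and 0.774). Gas6 differed least in size, at 0.17 ± 0.14 and -0.06 ± 0.13 (edgeR adjusted p = 0.343 and 0.748), around medians between 794 and 892 CPM in these 4 groups. Cd209f stood at -0.31 ± 0.32 and -0.15 ± 0.30 (edgeR adjusted p = 0.477 and 0.715). Lyve1 had opposite signs in the sexes, 0.29 ± 0.27 in males and -0.49 ± 0.25 in females (edgeR adjusted p = 0.416 and 0.107). A p over the threshold does not show that these levels were the same. FeAAD was the widest group for Lyve1, from 8.28 to 103 CPM.

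Cbr2 was lower in AAD aortas of both sexes and Timd4 in those of males, on the adjusted p alone and by less than the fold threshold. On the adjusted p alone, 5 of the 10 genes passed in males (35.0% of all tested genes) and 4 in females (44.4%), and the lower ones among them were Cbr2 and Timd4 in males and Cbr2 in females. Cbr2 ranged from 333 to 1004 CPM in MaCon, with a median of 477, and from 216 to 450 in MaAAD, with a median of 324. In FeCon it ranged from 368 to 710, with a median of 462, and in FeAAD from 203 to 438, with a median of 325. No lesioned aorta exceeded the control range, and 4 of 7 males and 6 of 9 females lay below every control. The log2 fold change was -0.85 ± 0.18 in males (edgeR adjusted p = 0.000204) and -0.62 ± 0.16 in females (edgeR adjusted p = 0.00201). Timd4 ranged from 1.74 to 6.09 CPM in MaCon, with a median of 3.58, and from 0.599 to 3.10 in MaAAD, with a median of 2.27. It ranged from 1.59 to 3.97 in FeCon, with a median of 2.98, and from 0.483 to 3.48 in FeAAD, with a median of 1.53. Timd4 thus lay below every control in 3 of 7 males and 5 of 9 females. Its log2 fold change was -0.87 ± 0.30 in males (edgeR adjusted p = 0.0223) and -0.66 ± 0.28 in females (edgeR adjusted p = 0.0548). Single libraries decided on which side of 0.05 it fell, since the male value missed it without MaAAD1, MaAAD4 or MaAAD5 (-0.76, -0.78 and -0.71) and the female value passed it without FeCon4, FeAAD2, FeAAD3 or FeAAD5 (-0.73, -0.82, -0.75 and -0.72).

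Smooth muscle genes moved with Cbr2. The summed level of 6 of them (Myh11, Acta2, Tagln, Cnn1, Smtn and Lmod1) was 27510 to 59714 CPM in MaCon and 11730 to 29183 in MaAAD, 30042 to 51829 in FeCon and 13829 to 31672 in FeAAD. All 6 were lower in each sex on the adjusted p alone, and 3 of 6 were called, for example Myh11 at -1.10 ± 0.21 in males and -1.16 ± 0.19 in females (edgeR adjusted p = 4.91e-05 and 3.95e-06). The part of smooth muscle in the level of Cbr2 was not tested.

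Genes that mark any macrophage and monocytes rose broadly over the same comparisons. A macrophage index was taken as the mean log2(CPM + 1) of Csf1r, Adgre1, Fcgr1, Spi1, Aif1, Tyrobp, C1qa, C1qb and C1qc, receptors, a transcription factor and complement genes shared by resident and recruited cells. It was higher by 1.89 in MaAAD than in MaCon (6.01 ± 0.69 against 4.13 ± 0.33, SD, n = 7 and 10, two-sided exact permutation test, adjusted p = 0.000309) and by 1.66 in FeAAD than in FeCon (5.77 ± 0.80 against 4.11 ± 0.36, n = 9 and 10, exact permutation test, adjusted p = 0.00013). All 9 genes were called higher in each sex. A monocyte index of 9 genes of blood monocytes and neutrophils, among them Ly6c2, Ccr2, Plac8, Chil3, F10, Ms4a4c, Clec4e and Trem1, was higher by 1.88 and 1.63 (exact permutation tests, adjusted p = 0.000309 and 0.00013), and all 9 genes were again called in each sex. With 0.1 in place of the 1 added to the CPM, the monocyte index was higher by 3.29 and 2.91 and the macrophage index by 2.02 and 1.82. The median log2 fold change of the 10 genes was 0.31 in males and 0.02 in females. It was 2.15 and 1.96 for the 9 macrophage genes, 4.01 and 4.28 for the 9 monocyte genes and -0.03 and 0.00 for all tested genes.

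A second list of 20 genes linked to resident macrophages behaved unevenly as well. Of the 20, 9 were called higher in males and 6 in females, none was called lower, and their median log2 fold change was 0.64 and 0.65. The largest rises called in both sexes were those of Cd209a, at 2.84 ± 0.46 and 3.80 ± 0.48, a lectin that monocyte-derived dendritic cells also carry, of Siglec1, at 2.19 ± 0.31 and 1.3 ± 0.29, a sialic acid receptor induced by interferon, and of Ednrb, at 1.89 ± 0.31 and 1.32 ± 0.30, the endothelin receptor B. Of the receptors of Gas6, namely Mertk, Axl and Tyro3, and the related ligand Pros1, none was called. Mertk, the clearance receptor of macrophages, was at -0.72 ± 0.15 in males and -0.59 ± 0.14 in females (edgeR adjusted p = 0.000161 and 0.000437), and Axl at 0.03 ± 0.13 and -0.52 ± 0.12 (0.902 and 0.000688). Tyro3 was at -0.30 ± 0.12 and -0.03 ± 0.12 (edgeR adjusted p = 0.0575 and 0.835). Pros1 passed the adjusted p alone with higher levels in each sex, at 0.59 ± 0.10 and 0.53 ± 0.09 (edgeR adjusted p = 6.06e-06 and 1.15e-05). Of the macrophage growth factor genes Csf1, Il34, Csf2, Csf2ra and Csf2rb, 4 passed the filter and the receptor subunits Csf2rb and Csf2ra were called higher in each sex, at 3.24 ± 0.44 and 1.18 ± 0.22 in males and 2.83 ± 0.42 and 1.39 ± 0.21 in females.

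Set against the macrophage index, the 10 genes spread widely, with Mrc1 and Pf4 near 0 and Timd4 and Cbr2 lowest in each sex. The same test was run with the index of each library as an offset, so that 0 means the same change as the mean of the general macrophage genes. In each sex 7 of the 10 genes were called lower, with 90.2% of all tested genes called in males and 86.5% in females. Nearly every gene outside macrophages falls on this scale by construction. The count of 7 of 10 lies under the share of all genes, and the sizes within the list carry the comparison. Mrc1 lay near 0, at 0.11 ± 0.23 in males and -0.22 ± 0.22 in females (edgeR adjusted p = 0.637 and 0.314), as did Pf4, at 0.02 ± 0.29 and 0.45 ± 0.27 (0.942 and 0.111). With an index of C1qa, C1qb and C1qc alone Pf4 was called higher in females, at 1.06 (edgeR adjusted p = 0.00225), and Cd163 was no longer called in males, at -0.98 (0.00651). F13a1 lagged by less than the fold threshold, at -0.67 ± 0.25 and -0.79 ± 0.24 (edgeR adjusted p = 0.0113 and 0.00146). Timd4 was at -2.60 ± 0.39 and -2.22 ± 0.35 and Cbr2 at -2.62 ± 0.34 and -2.10 ± 0.30, below the median of all tested genes, -1.82 in males and -1.55 in females. Cd209f was at -1.98 ± 0.36 and -1.74 ± 0.33 and Gas6 at -1.64 ± 0.28 and -1.59 ± 0.26. Folr2, at -1.48 ± 0.26 and -1.41 ± 0.24, and Cd163, at -1.24 ± 0.33 and -1.50 ± 0.31, lay above the median of all genes in each sex. Lyve1 lay above it in males, at -1.32 ± 0.35, and below it in females, at -2.04 ± 0.33.

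**Figure D2:**
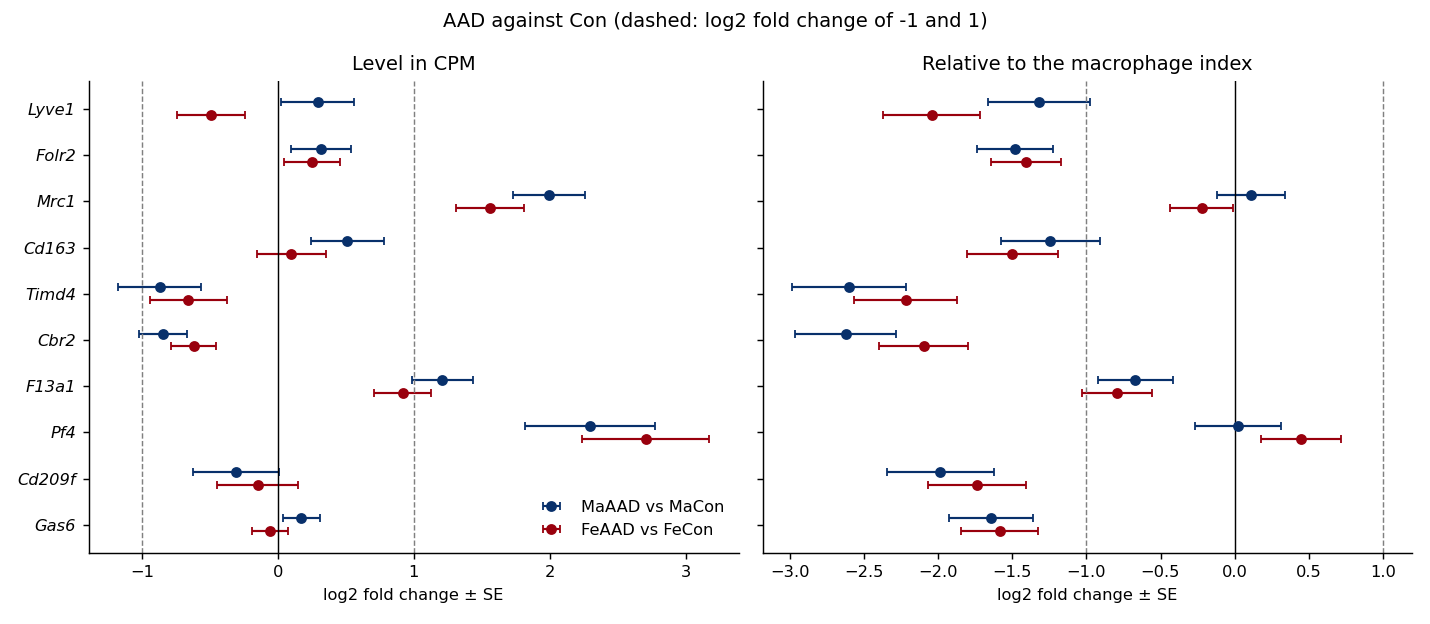
Points are log2 fold changes of AAD against Con with standard errors, males in blue and females in red, of the level in CPM on the left and relative to the macrophage index on the right, and dashed lines mark -1 and 1. Mrc1, Pf4 and F13a1 lie to the right of 0 on the left panel, and only Mrc1 and Pf4 lie around 0 on the right panel.

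After BAPN without a lesion none of the 10 genes passed both thresholds. No member was called in MaNonAD against MaCon (0.478% of all tested genes) or in FeNonAD against FeCon (2.75%), by edgeR or by DESeq2. At an unadjusted p under 0.05 by edgeR the count was 0 in males and 2 in females, beside 1734 and 4172 of the 14431 tested genes. These 2 were Lyve1 at -0.71 ± 0.26 and Cd209f at 0.78 ± 0.30 (edgeR adjusted p = 0.0604 and 0.0734). Mrc1 was at 0.49 ± 0.31 in males and 0.49 ± 0.25 in females (edgeR adjusted p = 0.573 and 0.194). The 4 MaNonAD libraries held 44.8, 31.1, 52.9 and 53.1 CPM of Mrc1, within the MaCon range but for the last pair. The macrophage index was higher in MaNonAD than in MaCon by 0.72 (exact permutation test, adjusted p = 0.0107) and in FeNonAD than in FeCon by 0.38 (0.0712, exact permutation test). The monocyte index was higher by 0.52 in males and 0.31 in females (exact permutation tests, adjusted p = 0.00909 and 0.0206). With 0.1 in place of the 1 added to the CPM, these differences were 1.18 and 0.63 (exact permutation tests, adjusted p = 0.00909 and 0.0473). FeNonAD8 stood apart in both indexes, with a macrophage index of 5.48 and a monocyte index of 1.88. The other FeNonAD libraries reached at most 4.75 and 1.16. The female index tests were not repeated without FeNonAD8. Relative to the macrophage index, 0 of 10 genes were called in males (0.0485% of all genes) and 0 in females (1.76%). On that scale 2 members in males and 3 in females had an unadjusted p under 0.05 by edgeR. So did 6976 and 3133 of the 14431 tested genes. MaNonAD1 had the lowest level of its group for Lyve1, Folr2, Cd163, Timd4, Cbr2, Pf4 and Cd209f and the highest macrophage index, 5.25. It held 1.02 CPM of Timd4 beside 5.03, 4.47 and 3.41.

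From BAPN without a lesion to AAD, Mrc1 was called in both sexes and Pf4 in females. In FeAAD against FeNonAD 2 genes were called (7.04% of all genes), Mrc1 at 1.07 ± 0.26 and Pf4 at 2.47 ± 0.50 (edgeR adjusted p = 0.00304 and 0.000416). On the adjusted p alone 5 passed (18.2% of all genes), with F13a1 at 0.66 ± 0.22, Timd4 at -0.83 ± 0.30 and Cd209f at -0.93 ± 0.31 (edgeR adjusted p = 0.0323, 0.0441 and 0.0311). Pf4 ranged from 10.6 to 23.6 CPM in FeNonAD, with a median of 16.1, so 7 of 9 lesioned females exceeded all of them. Cd209f ranged from 6.56 to 17.9 in FeNonAD, with a median of 8.71, and from 0.725 to 9.41 in FeAAD, with a median of 4.24, and 6 of 9 lay below every FeNonAD library. Without FeAAD5 the value of Pf4 was 1.197 (edgeR adjusted p = 0.0174). The call of Mrc1 was lost without FeAAD5 (0.81) or FeAAD2 (0.98), whereas Cd209f was called without FeAAD2 (-1.09), FeAAD3 (-1.02) or FeAAD5 (-1.05).

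In MaAAD against MaNonAD 1 gene was called (0.353% of all genes), Mrc1 at 1.51 ± 0.36 (edgeR adjusted p = 0.0497), and its groups did not overlap, with 4.04% of all tested genes. This call sits on the threshold and was lost without any of MaNonAD2, MaNonAD3, MaNonAD4, MaAAD3, MaAAD5, MaAAD6 and MaAAD7, with values from 1.21 to 1.59. Pf4 stood at 1.83 ± 0.66 and F13a1 at 0.79 ± 0.29 (edgeR adjusted p = 0.108 and 0.122). Pf4 was called by DESeq2, at 1.84 (DESeq2 adjusted p = 0.00468), but DESeq2 called 515 of all tested genes here and edgeR 51. Without MaAAD7 Pf4 was at 0.92 (edgeR adjusted p = 0.496). The Pf4 values of the 4 MaNonAD libraries were 14.9, 20.8, 21.9 and 17.4 CPM, and 6 of 7 MaAAD libraries exceeded them. Relative to the macrophage index 5 genes were called lower in males (61.3% of all genes) and 7 in females (75.3%). Timd4 was at -1.89 ± 0.44 and -2.06 ± 0.36 on that scale and Cd209f at -1.71 ± 0.42 and -2.19 ± 0.35.

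The sexes differed at baseline in Lyve1. Control females had more of it, with a range of 44.0 to 97.4 CPM and a median of 69.2, than control males, whose range was 19.2 to 53.6 and whose median was 33.3, and these ranges overlapped. The log2 difference of males from females was -0.92 ± 0.25 (edgeR adjusted p = 0.00934), which is under the fold threshold, and without MaCon1 it was -1.004 and was called. Lyve1 was the 1 gene of 10 past the adjusted p alone there (14.3% of all genes), and none was called on both thresholds (1.51%), so neither count exceeds the share of all genes. The 6 lymphatic genes were also lower in control males, with a median log2 difference of -0.73, but none of them passed the adjusted p alone by edgeR, and their part in the level of Lyve1 was not tested. Their summed level was 17.0 to 69.2 CPM in MaCon and 32.1 to 95.0 in FeCon. In the 4 MaNonAD libraries Lyve1 was 35.1, 53.1, 46.8 and 51.4 CPM, and in FeNonAD it ranged from 29.9 to 62.7 with a median of 35.4. With BAPN none of the 10 genes was called between the sexes, neither in MaNonAD against FeNonAD (0.0485% of all genes) nor in MaAAD against FeAAD (0.0693%).

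The response to BAPN without or with a lesion was not called different between the sexes for any member. For the AAD response 0 of 10 genes were called (0.520% of all genes), for the NonAD response 0 (0.298%) and for the step from NonAD to AAD 0 (0% of all genes, with 150 of them at an unadjusted p under 0.05 by edgeR and 1 called by DESeq2). Lyve1 came nearest, with a male response higher by 0.79 ± 0.37 for AAD and 1.09 ± 0.41 for NonAD (edgeR adjusted p = 0.284 and 0.229, unadjusted p = 0.0372 and 0.0104 by edgeR). It was the 1 member of 10 with an unadjusted p under 0.05 in each. So were 2220 of the 14431 tested genes for AAD and 1752 for NonAD, so this count does not exceed the share of all genes. The difference in response was 0.43 ± 0.36 for Mrc1, -0.41 ± 0.66 for Pf4, 0.29 ± 0.31 for F13a1, -0.21 ± 0.41 for Timd4 and -0.23 ± 0.24 for Cbr2 (edgeR adjusted p between 0.6 and 0.851). For Pf4 the sign turned without FeAAD5, to 0.86 (edgeR adjusted p = 0.345).

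Among the AAD aortas the 10 genes were also set against the extent of monocyte RNA. Their log2 level was fitted over the 16 AAD libraries against the monocyte index, with sex as a covariate. With 43.8% of all tested genes past an adjusted p of 0.05, 4 of the 10 rose along the index and none fell. Pf4 rose by 1.26 ± 0.07 on the log2 scale for each unit of the index (edgeR adjusted p = 2.98e-08), Mrc1 by 0.55 ± 0.08 (7.03e-05, edgeR adjusted), F13a1 by 0.40 ± 0.10 (0.00509, edgeR adjusted) and Folr2 by 0.27 ± 0.10 (0.0484, edgeR adjusted). The slopes of the other 6 lay between -0.34 ± 0.20 for Lyve1 and 0.23 ± 0.17 for Cd163 (edgeR adjusted p between 0.173 and 0.783). Timd4 had a slope of 0.15 ± 0.19 and Cbr2 of 0.03 ± 0.08. FeAAD5 and MaAAD7 lay farthest out, with an index of 4.95 and 4.44 beside a median of 2.21. Without this pair Pf4 alone passed, at 1.05 ± 0.17 (edgeR adjusted p = 0.00606), with Mrc1 at 0.54 ± 0.20, F13a1 at 0.18 ± 0.25 and Folr2 at 0.01 ± 0.27.

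**Figure D3:**
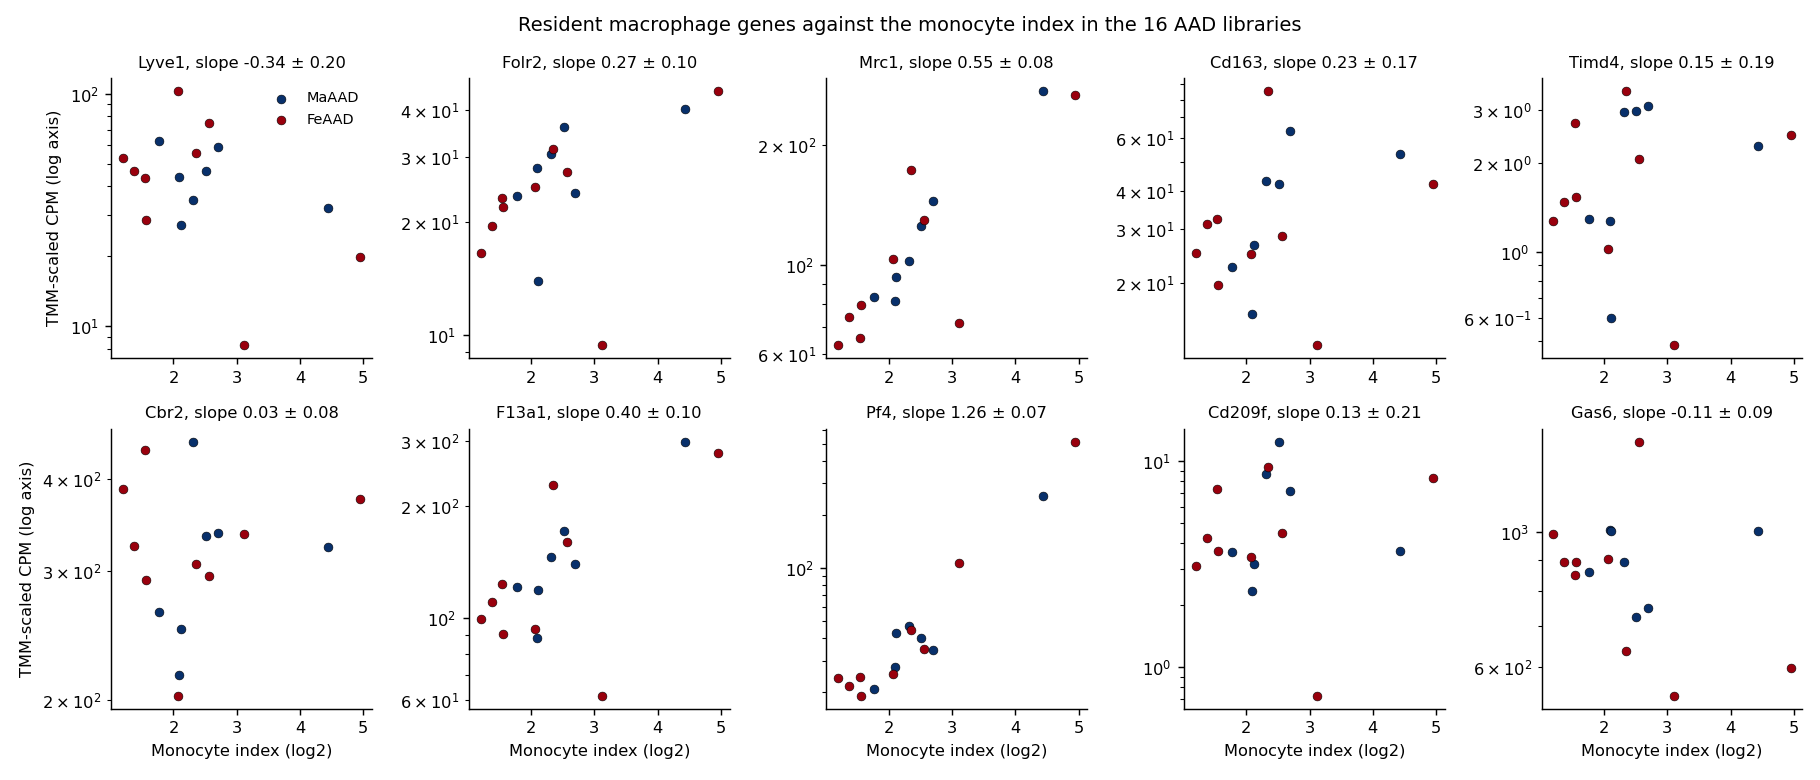
Each point is 1 of the 16 AAD libraries, with the monocyte index in log2 units on the horizontal axis and the TMM-scaled CPM on a log axis, males in blue and females in red, and the fitted slope and standard error over each panel. Pf4 and Mrc1 climb with the index, the slopes of Timd4 and Cbr2 are 0.15 and 0.03, and FeAAD9, at an index of 3.12, is the lowest FeAAD library for Lyve1, Folr2, Cd163, Timd4, F13a1, Cd209f and Gas6.

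FeAAD9 went against the others. It had 107 CPM of Pf4, the second highest of its group, but 8.28 of Lyve1, 9.36 of Folr2, 12.4 of Cd163, 0.483 of Timd4, 0.725 of Cd209f and 61.5 of F13a1, each the lowest of the 9 FeAAD libraries. Its Mrc1 was 71.9 CPM. The endothelial sum of 5 genes was lowest in it too, at 241 CPM beside a group median of 635.

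Pf4 and its gene neighbour Ppbp, which encodes another platelet chemokine, were highest in the same 3 libraries, whereas the platelet receptors Itga2b and Gp9 were highest in others. Along the monocyte index 1 of 9 tested platelet genes passed, namely Ppbp at 1.81 ± 0.24 (edgeR adjusted p = 3.77e-05), and Clec1b, a platelet lectin also named after its values were seen, was at 0.92 ± 0.38 (0.0582). Ppbp stood at 196 CPM in FeAAD5, 128 in MaAAD7 and 61.6 in FeAAD9, against at most 20.7 in the other 45 libraries, and it was called higher in each sex (4.08 ± 0.80 and 6.41 ± 0.91, edgeR adjusted p = 7.37e-05 and 2.26e-07). Itga2b and Gp9, platelet surface receptors named here after their values were seen, were at 3.43 and 0.241 CPM in FeAAD5 and at 6.82 and 1.63 in MaAAD7. Their highest values were those of FeAAD3 (22.2 and 4.83) and FeAAD2 (14.4 and 3.48), where Pf4 was 24.4 and 44.7. FeAAD2 also held the most red cell RNA, with a sum of 18744 CPM over Hbb-bs, Hba-a1 and Alas2 where the FeAAD median was 449. Of 10 platelet genes 9 were tested, and 2 were called higher in males and 7 in females.

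**Figure D4:**
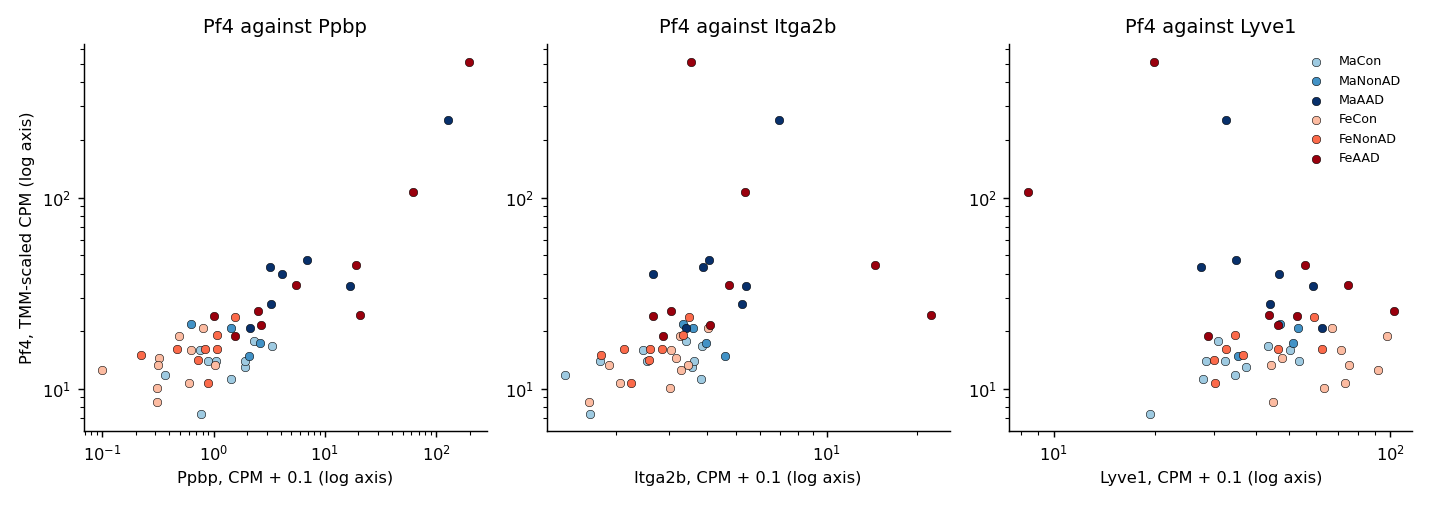
Each point is 1 of the 48 libraries, with Pf4 in TMM-scaled CPM on the vertical axis against Ppbp, Itga2b and Lyve1 in CPM plus 0.1 on the horizontal axes, all on log scales. The 3 highest Pf4 libraries are also the highest for Ppbp, and not for Itga2b.

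The 10 genes did not vary as 1 block. Pearson's r of log2(CPM + 1) was taken over the 48 libraries after each group's mean was removed, as a description, since depth and tissue makeup are shared by all genes of a library. Of the 45 pairs 34 had an r above 0, with a median of 0.33. Folr2, Timd4 and Cd209f formed 1 close set, with r of 0.78, 0.77 and 0.70, and Mrc1, F13a1 and Cd163 another, with r of 0.88, 0.79 and 0.66. These sets were not separate, since Cd163 had an r of 0.67 with Timd4 and 0.60 with Cd209f, and Folr2 of 0.63 with F13a1. Pf4 was closest to Mrc1 (0.67). Cbr2 and Gas6 were close to none of the others, with no r above 0.34, and Lyve1 reached 0.47 with Cd163 and was at -0.35 with Pf4.

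**Figure D5:**
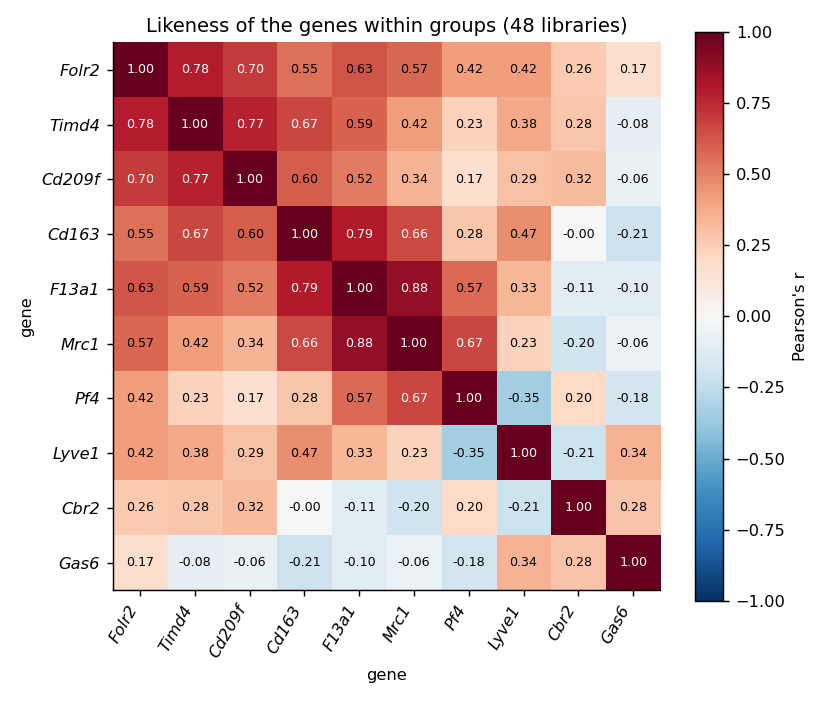
Colour and figures give Pearson's r between genes over 48 libraries after group means were removed. Folr2, Timd4 and Cd209f lie close, as do Cd163, F13a1 and Mrc1, with Cd163 also at 0.67 with Timd4, while Cbr2 and Gas6 stay at or below 0.34 with all others.

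Nearest neighbours among 13238 genes with a mean of at least 1 CPM differed in kind between members. Those of Cbr2 were Spint2 (r = 0.93), Myl6 (0.90) and Sgca (0.90), a protease inhibitor, a myosin light chain and a sarcoglycan, and its median r with the 6 smooth muscle genes was 0.61, beside 0.03 with the macrophage index genes. Lyve1 was nearest to Gpc3 (r = 0.81), Pcsk6 (0.76) and Dcn (0.76), a glypican, a proprotein convertase and decorin of the connective tissue, with a median r of 0.63 with 6 fibroblast genes, 0.54 with 6 lymphatic genes and 0.15 with the macrophage index genes. For Gas6 they were Gnptg (r = 0.83), Nbl1 (0.82) and Il11ra1 (0.82), and the median r with fibroblast genes was 0.47. The median r of Gas6 with the macrophage index genes was 0.16. With the same genes it was 0.15 for Cd163 and 0.20 for Timd4, close to the values of Lyve1 and Gas6. With 19 further resident macrophage genes the median r was -0.11 for Cbr2, 0.035 for Gas6, 0.23 for Lyve1, 0.30 for Timd4 and 0.36 for Cd163. The share of the RNA of these genes that macrophages hold was not tested.

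The neighbours of the other 7 members often included one another. Folr2 was nearest to Timd4 (r = 0.78), the lectin Clec10a (0.74) and Hfe (0.74), Timd4 to Folr2 (0.78), Cd209f (0.77) and the ficolin Fcna (0.77), and Cd209f to its paralog Cd209g (r = 0.85), Timd4 (0.77) and Folr2 (0.70). Mrc1 lay nearest to F13a1 (r = 0.88), the inhibitory Fc receptor Fcgr2b (0.88) and Ms4a6c (0.88). F13a1 was nearest to Mrc1 (r = 0.88), Medag (0.81) and the lipoxygenase Alox5 (0.79), and Cd163 to F13a1 (0.79), Adgrd1 (0.68) and Timd4 (0.67). Pf4 was nearest to Tnfsf14 (r = 0.94), Cfp (0.94) and Apoc2 (0.93), a TNF family ligand, properdin and an apolipoprotein. Its median r was 0.84 with the 8 monocyte genes and 0.13 with the 3 platelet genes that reached the mean of 1 CPM. Ppbp was 1 of these 3, and the median does not show its own r with Pf4.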

How the data were processed

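Gene-level expected counts estimated with RSEM 1.3.1 were deposited by the authors for 18782 genes of 48 aortic libraries (Bowtie2 and build GRCm39 per the submitters' processing notes). Of all values 4.99% were not whole, and all were rounded, which moved a library total by at most 24.1. No 2 libraries were identical, and r between libraries was 0.908 to 0.996. The 10 genes and all gene lists were chosen with earlier results of these data known.

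Genes were filtered with filterByExpr, scaled by TMM (factors 0.874 to 1.08) and fitted in edgeR 4.0.16 (R 4.3.3, robust quasi-likelihood) with 6 group means over all libraries, and p-values were adjusted by Benjamini-Hochberg over 14431 genes. Each SE is the absolute log2 fold change over the square root of the test's F. The design had assumed counts, and the same test was run on rounded expected counts. A second fit took the macrophage index as offset, and another fitted slopes on the monocyte index within AAD. Index differences were tested by two-sided exact permutation, adjusted over 12 tests. The mice were separate animals. All 10 genes are described in every comparison, and from each other list up to 3 genes are named, those with the largest changes called in the same direction in both sexes and averaging at least 10 counts a library, otherwise the first 3 of the list. Beyond this rule, values are given for platelet genes named after their values were seen and for every gene of the list of Gas6 receptors and Pros1. For each of the 10 genes the 3 of highest r are named. Alternatives were DESeq2 1.42.0, other scalings, filters and indexes, a replicate block, the compared groups alone and leaving out libraries. Scripts were tested on simulated data. Promoters came from RefSeq (GRCm38.p6). Some genes of the lists, and results that rest on them, are not reported here.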

Additional observations from a re-analysis of the deposited data

Results flagged for a closer look

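Of 60 sets of values, 1 for each gene and group, 4 held a library far from the rest of its group by Dixon's criterion, which chance meets in about 1 of 20 groups. Pf4 was 254 CPM in MaAAD7, and the other 6 MaAAD libraries lay between 20.8 and 47.1. Mrc1 was 110.0 CPM in FeNonAD8, with the other 7 between 35.4 and 58.7. Cd209f was 17.9 CPM in FeNonAD6, with the others between 6.56 and 9.87, and Folr2 was 12.7 CPM in FeNonAD2, with the others between 19.6 and 25.4. No member's response differed between the sexes past the adjusted p.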

How the results depend on the processing

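Of 3660 values of single genes under alternatives, 3595 kept their side of the thresholds, among them 119 uncalled values that changed sign, 37 lost a call, 28 gained one and no called value turned sign. On the adjusted p alone the count of called genes was 5 in MaAAD against MaCon, 4 in FeAAD against FeCon, 5 in FeAAD against FeNonAD and 1 in MaCon against FeCon. Along the monocyte index it was 1 without the 2 libraries farthest out. In MaAAD against MaNonAD DESeq2 called 2 of the genes followed here, but it called 515 of all tested genes where edgeR called 51. In the same comparison 0 of the genes followed here were called with no filter or with the compared groups alone. With an index of Csf1r and Adgre1 the relative counts were 1 in FeNonAD against FeCon, 3 in MaAAD against MaNonAD and 4 in FeAAD against FeNonAD, and with C1qa, C1qb and C1qc 3 and 4 in the last pair. Each count of 4 is 3 genes lower and 1 (Pf4) higher, against 7 lower with the full index. Without TMM factors the macrophage index of FeNonAD exceeded that of FeCon by 0.44 (exact permutation test, adjusted p = 0.0431). The causes were not tested.

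Leaving out 1 library gave 2 to 3 called genes in MaAAD and in FeAAD against controls and in FeAAD against FeNonAD, 0 to 1 in MaAAD against MaNonAD and in MaCon against FeCon, and 0 to 0 in the other 7 comparisons. Leaving out each of the 4 MaNonAD libraries, the only ones left out for these results, gave relative to the index 0 to 0 in MaNonAD against MaCon and 3 to 6 in MaAAD against MaNonAD. The macrophage index then differed by 0.59 to 0.89 and 1.00 to 1.299 in this pair of comparisons, and the monocyte index by 0.42 to 0.63 and 1.25 to 1.46.

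The replicate numbers were shared by the groups, and the labels do not say what they stand for. In no comparison did every same-numbered pair deviate together (lowest r -0.532, highest 0.472), and the numbers were not taken as a pairing. Whether they reflect shared handling was not tested. With the number as a replicate block, 0 members were called in MaAAD against MaNonAD, where the genes called went from 51 to 0, Timd4 was called lower in MaAAD against MaCon (-1.07, edgeR adjusted p = 0.00632), and relative to the macrophage index 2 were called in MaNonAD against MaCon and 3 in MaAAD against MaNonAD. Low counts limit Timd4 (from 8 reads) and shared reads limit Cd209f.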
